A study of Homo sapiens with 46 samples.

Results

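Chimeras against 5 mRNAs of respiratory complex I left human cells in 1 of 2 states of the targeted mRNA. It was more abundant than in control cells after silencing of ND1, ND2 or ND3, and not more abundant after silencing of ND4L or ND5. The whole transcriptome of the first 3 treatments was compared with that of the other 2, and 19 of the 46 RNA-seq libraries of the study entered the comparison, 11 on the first side and 8 on the second. The sides were chosen from the measured levels of the targeted mRNAs in these same libraries, so those mRNAs are described here and not tested.

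All libraries came from HEK293T cells of WT genotype, derived from human embryonic kidney and carrying the HEK293-Flp-In T-Rex background. Each treatment delivered 1 chimera at 2 µM for 48 hours with the carrier Endo-Porter. In a chimera, the yeast presequence pCox4, which mitochondria import, carries a morpholino attached by a click reaction. Morpholinos are uncharged antisense oligomers that pair with RNA. The 4 control libraries came from cells given pCox4 in click reaction buffer with no morpholino, and they serve here as the background level beside the 5 treatments. The ND1, ND3, ND4L and ND5 treatments have 4 libraries each and ND2 has 3, since replicate 2 of ND2 is not among the samples. Batch 1 holds the replicates numbered 1 and 2 and batch 2 those numbered 3 and 4, prepared on different days with different reagents. All cells are of 1 line, and p-values measure the spread between these libraries.

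Complex I is the entry point of electrons from NADH into the respiratory chain. Most of its subunits are made from nuclear genes, and the hydrophobic core of its membrane arm is encoded by mtDNA. ND1 lies next to the quinone site, and ND2, ND3, ND4L and ND5 belong to the membrane arm that pumps protons. The complex is put together from preassembled modules, among them those named after ND1, ND2, ND4 and ND5. Human mtDNA is transcribed as long polycistronic RNAs, from which tRNAs are excised to release the mRNAs and rRNAs.

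The 5 chimeras pair with different stretches at the 5′ end of their mRNAs, and the first 30 bases of each mRNA are shown because the targets differ in length, base composition and position. Capitals mark the bases the chimera covers, in the sequence of GRCh38 as annotated in GENCODE release 29, plus strand, 5′ to 3′.
ND1 (MT:3307-3323): ATACCCATGGCCAACCTcctactcctcatt
ND2 (MT:4481-4498): attaatcccctGGCCCAACCCGTCATCTAc
ND3 (MT:10059-10083): ATAAACTTCGCCTTAATTTTAATAAtcaac
ND4L (MT:10475-10499): atgccCCTCATTTACATAAATATTATACTA
ND5 (MT:12339-12361): atAACCATGCACACTACTATAACCAcccta
The ND1 and ND3 chimeras covered the whole start codon, that of ND5 covered only its last base, and those of ND2 and ND4L lay beyond it. The covered stretch was 17 bases for ND1 with 52.9% G or C, and 18 bases for ND2 with 61.1%. The ND3 and ND4L stretches were alike, each of 25 bases with 20.0% G or C, and that of ND5 had 23 bases with 39.1%. ND3 and ND4L, the pair most alike in length and base composition of the target, stand on opposite sides of the comparison.

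The targeted mRNAs show how the sides were drawn. Levels are CPM, counts scaled to a common library size, after scaling of library sizes by the trimmed mean of M-values (TMM). MT-ND1 stood at 2358, 2614, 3014 and 2706 CPM in the ND1 libraries and at 1548 ± 169 CPM in the control (SD, n = 4). MT-ND2 stood at 3949, 5409 and 4874 CPM in the ND2 libraries and at 2276 ± 255 CPM in the control. MT-ND3 stood at 762.7, 725.1, 994.1 and 1138 CPM in the ND3 libraries and at 515.7 ± 46.7 CPM in the control.

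In these 3 treatments every library lay above every control library. MT-ND4L, in contrast, stood at 388.8, 417.9, 573.5 and 630.8 CPM after ND4L silencing, overlapping the control at 608.3 ± 98.6 CPM. MT-ND5 stood at 2055, 2327, 2533 and 1994 CPM after ND5 silencing, and the control at 2536 ± 294 CPM, again with overlap. The fitted log2 differences from the control were 0.79 for MT-ND1, 1.02 for MT-ND2, 0.80 for MT-ND3, -0.29 for MT-ND4L and -0.19 for MT-ND5, each in its own treatment.

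The split was not complete for single mRNAs. MT-ND3 also lay 0.27 above the control in ND4L cells and 0.29 in ND5 cells on the log2 scale, with libraries between 434.1 and 840.9 CPM. MT-ND2 lay 0.46 above the control in ND1 cells, where its 4 libraries held 2932, 3319, 3375 and 2807 CPM against 2034 to 2567 CPM in the control. MT-ND4, which overlaps MT-ND4L in the bicistronic ND4L/ND4 mRNA, lay 0.21 below the control in ND4L cells. None of these genes, nor the nuclear copies of the 5 targets and of MT-ND4 that can share their reads, enters a count below.

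**Figure D1:**
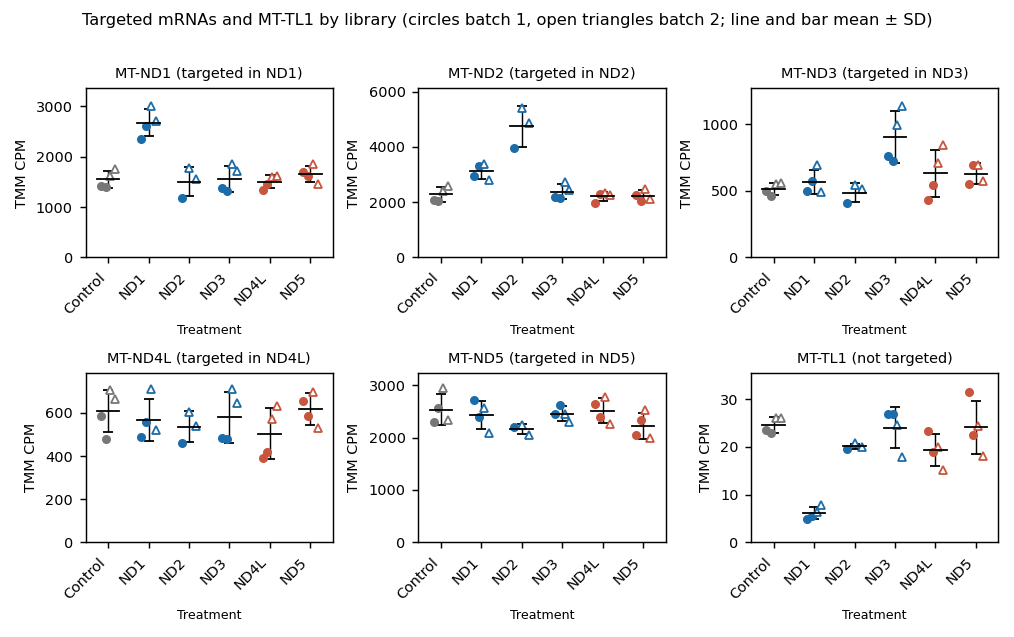
TMM-scaled CPM of the 5 targeted mRNAs and of the transfer RNA gene MT-TL1 in each library of the control and of the 5 treatments; circles are batch 1, open triangles batch 2, and line and bar are the mean ± SD. MT-ND1, MT-ND2 and MT-ND3 stand above the control in the treatment against them, MT-ND4L and MT-ND5 do not, and MT-TL1 is low in the 4 ND1 libraries.

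The libraries of both sides overlapped in size and make-up. Total counts ran from 20519514 to 26052415 after ND1, ND2 or ND3 silencing and from 21383044 to 27301986 after ND4L or ND5 silencing. Genes of mtDNA took 3.80% to 5.01% of the counts on the first side and 4.07% to 5.34% on the second. Mitochondrial rRNA took 0.315% to 0.443% on the first side and 0.392% to 0.574% on the second, with 0.460% to 0.574% in ND5 cells. All 8 markers of the HEK293 line were above 1 CPM, with a summed level of 1090 to 1290 CPM on the first side and 1060 to 1300 CPM on the second. Of 5 endothelial and 5 hepatocyte markers all lay below 1 CPM on average, as did 5 of 6 leukocyte, 4 of 5 cardiomyocyte and 5 of 8 fibroblast markers. The summed fibroblast level, mostly COL1A1, was 28.9 to 37.7 CPM on the first side and 30.1 to 41.5 CPM on the second. In bulk samples, fewer cells of a type and less RNA per cell cannot be told apart.

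Beyond the targeted mRNAs, ND1, ND2 and ND3 cells differed from ND4L and ND5 cells by small shifts in a limited set of genes. They held more mRNA of TXNIP and ARRDC4, and less of TGM2, MYH14 and NUPR1, the last a gene of few reads. They also held more of the peroxidase gene PRDX3, which was lowest in ND5 cells. Of 20259 genes tested, 133 (0.656%) passed an adjusted p of 0.05 in edgeR's quasi-likelihood test with Benjamini-Hochberg adjustment, which is what called means below. Of these, 66 (0.326%) were higher and 67 (0.331%) lower after ND1, ND2 or ND3 silencing, and the lower genes include 6 of mtDNA. The median absolute log2 difference of the called genes was 0.191, and 6 exceeded 0.5. An unadjusted p under 0.05 was reached by 2779 genes, 1423 higher and 1356 lower.

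The control did not enter the contrast, and the levels of the called genes against it are given as a description. These genes were chosen by a contrast that averages 3 treatments on 1 side and 2 on the other, so a larger distance of ND4L and ND5 from the control is no independent result. Of the 66 higher genes, 61 lay below the control in both ND4L and ND5 cells, as did 33.2% of all genes tested, with median log2 values of -0.13 and -0.14. The same genes had medians of 0.06 in ND1, 0.03 in ND2 and -0.01 in ND3 cells. Of the 67 lower genes, 59 lay above the control in both ND4L and ND5 cells, beside 34.2% of all genes, with medians of 0.13 and 0.22, against -0.09 in ND1, -0.03 in ND2 and 0.00 in ND3 cells.

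For 125 of the 133 genes, the means of ND1, ND2 and ND3 all lay on the same side of both the ND4L and the ND5 mean, an order that 25.7% of all genes tested had. The single libraries still overlapped: in 0 of the 133 genes did all 11 libraries lie beyond all 8. All 133 had the same direction in both batches when each batch was fitted alone, while 11 genes were called in batch 1 alone and 3 in batch 2 alone. The 133 were called from both batches together and for a difference between these same treatment means. Neither the order of the means nor the shared direction is therefore an independent result.

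The number of called genes rested on particular treatments and libraries. Without the ND5 treatment 2 genes were called, and without the ND1 treatment 15. The count was 45 without ND2, 118 without ND3 and 103 without ND4L. Of the 133, the direction was kept in 131 without ND5 and in all 133 without ND4L, and 113 and 132 had the same direction at an unadjusted p under 0.05. None of the called genes described below was called without ND5. In edgeR, 1 of the 133 was called without ND5, 56 without ND4L and 0 in both of these fits. An unadjusted p under 0.05 was reached by 112 in both. Both fits reuse most of the libraries from which the 133 were called. A kept direction or a low unadjusted p in them is therefore no independent result.

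Leaving out a single library moved the count by more than 1.5 times in 15 of 19 cases. It was lowest without ND5 replicate 2 (31) and between 32 and 84 without ND1 replicates 2 or 3, ND2 replicates 1 or 3, ND3 replicates 1 or 3, ND4L replicates 1, 3 or 4 and ND5 replicates 1 or 4. It was 201 without ND3 replicate 4, 291 without ND4L replicate 2 and 300 without ND5 replicate 3. All 133 genes kept their direction in all 19 of these fits, and 22 were called in every one. These fits share most libraries with the main fit, so a kept direction is no independent result. With 1 value per treatment, which leaves 5 values, limma called 0 genes, and 1403 reached an unadjusted p under 0.05.

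**Figure D2:**
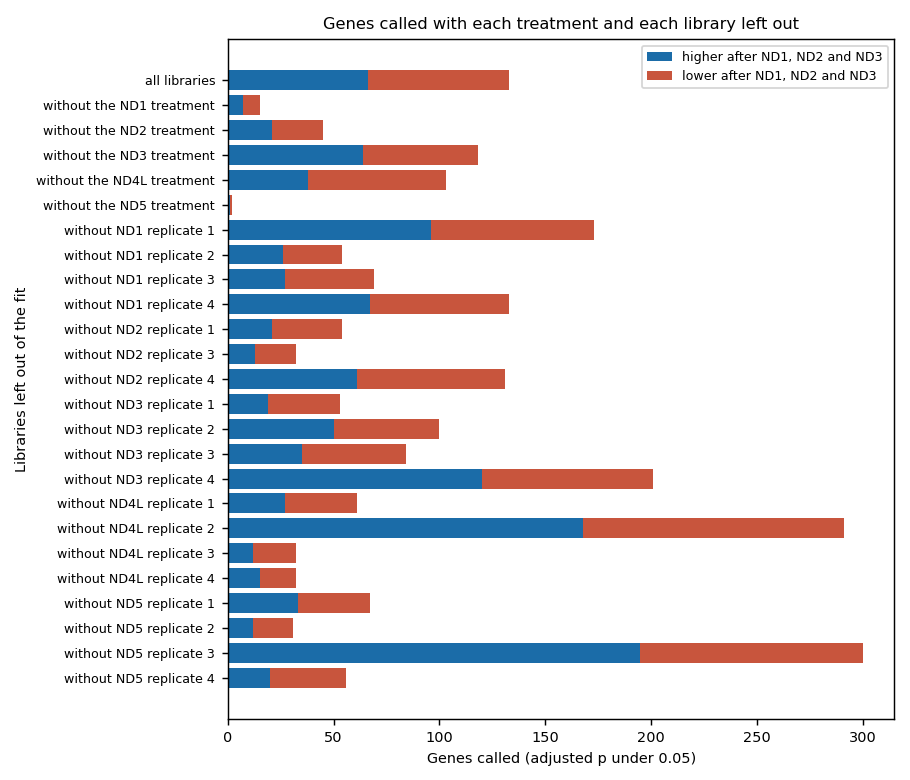
Number of genes called in the comparison of ND1, ND2 and ND3 with ND4L and ND5, with all libraries and with each treatment or library left out; blue is the part higher and red the part lower after ND1, ND2 or ND3 silencing. The count runs from 2 without the ND5 treatment to 300 without ND5 replicate 3.

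Some genes stood at nearly the same level in ND4L and ND5 cells and apart from the other 3 treatments. For PSAT1 and NUPR1, described with them, this was less clear. TXNIP and ARRDC4 are related arrestin-domain genes that restrain glucose uptake and are known to follow the energy state of the cell through the factor MondoA. TXNIP (chromosome 1, 145992435 to 145996600, GRCh38) ranged from 23.65 to 34.91 CPM after ND1, ND2 or ND3 silencing (median 28.99, n = 11). After ND4L or ND5 silencing it ranged from 18.96 to 30.12 CPM (median 24.20, n = 8). The ranges overlapped and the ND1, ND2 and ND3 side was higher by 0.26 on the log2 scale (SE 0.05, adjusted p = 0.00899, edgeR).

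The mean of TXNIP was higher in the control than in any of the 5 treatments, at 39.1 ± 6.06 CPM (SD, n = 4). Log2 values against it were -0.44 in ND1, -0.50 in ND2, -0.42 in ND3, -0.71 in ND4L and -0.70 in ND5 cells. ARRDC4 likewise lay below the control in all 5 treatments. Its libraries held 43.91 to 56.58 CPM on the ND1, ND2 and ND3 side and 38.25 to 50.14 CPM on the other (medians 53.89 and 44.60), with the control at 63.9 ± 3.98 CPM. The difference between the sides was 0.20 (SE 0.04, adjusted p = 0.0101, edgeR). Without the ND5 treatment the adjusted p was 0.0783 for TXNIP and 0.0733 for ARRDC4, and without ND4L 0.0562 and 0.106, with differences of 0.18 to 0.26 throughout. Both were called in all 19 fits without 1 library. Both belong to a list of 5 targets of MondoA and ChREBP, of which 2 were called higher and 0 lower, beside 0.656% of all genes.

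NOL11, a nucleolar factor of ribosomal RNA synthesis that was picked after its values were seen, had 174.6 ± 9.38 CPM in ND1, 169.0 ± 12.1 in ND2 and 168.1 ± 13.8 in ND3 cells (SD). It had 152.2 ± 14.0 CPM in ND4L and 150.7 ± 9.32 in ND5 cells, with the control at 167.6 ± 5.64 CPM. The libraries overlapped between 152.3 and 172.3 CPM, and the difference was 0.18 (SE 0.03, adjusted p = 0.00577, edgeR; 0.0783 without ND5), called in all 19 fits without 1 library.

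PSAT1, an enzyme of serine synthesis and a target of the stress factor ATF4, was higher on the ND1, ND2 and ND3 side. Its libraries ranged from 153.9 to 189.5 CPM there and from 138.9 to 166.1 CPM on the other side (medians 172.6 and 158.5), with the control at 166.3 ± 8.26 CPM. The difference was 0.14 (SE 0.03, adjusted p = 0.0183, edgeR), with the call lost without ND4L replicate 4 (0.0625) or ND5 replicate 2 (0.0511). It was also lost without ND5 (0.0733) or ND4L (0.184). PSAT1 means were 181.0 CPM in ND1, 170.1 in ND2, 161.7 in ND3, 152.7 in ND4L and 158.2 in ND5 cells. The ND5 mean thus lay nearer to ND3 than to ND4L.

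Other genes were lower after ND1, ND2 or ND3 silencing. TGM2, a transglutaminase that cross-links proteins (chromosome 20, 38127387 to 38166578), ranged from 3.64 to 6.01 CPM on that side (median 4.83). It ranged from 5.33 to 7.47 CPM after ND4L or ND5 silencing (median 6.61), with the control at 5.58 ± 0.579 CPM. Of the first side, only ND3 replicate 2 reached into the range of the second. The difference was -0.45 (SE 0.08, adjusted p = 0.00204, edgeR), kept in all 19 fits without 1 library and of the same size without ND5 (-0.44, adjusted p = 0.0733) and without ND4L (-0.45, adjusted p = 0.0180).

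MYH14, a non-muscle myosin heavy chain, had 19.1 ± 3.78, 19.6 ± 3.47 and 19.7 ± 2.13 CPM in ND1, ND2 and ND3 cells. ND4L and ND5 cells had 23.7 ± 3.27 and 24.7 ± 3.76 CPM, and the control 18.9 ± 2.68 CPM. The sides overlapped between 20.11 and 24.63 CPM, and the difference was -0.30 (SE 0.06, adjusted p = 0.00827, edgeR; 0.0892 without ND5), called in all 19 fits. MMP2, a secreted protease of the matrix, ranged from 2.02 to 3.03 CPM against 2.95 to 4.06 CPM. Its difference was -0.50 (SE 0.11, adjusted p = 0.0170, edgeR), with the call lost without ND2 replicate 3 (0.0597), ND4L replicate 4 (0.0585) or ND5 replicate 2 (0.0582), and without ND5 (0.0876) or ND4L (0.0745).

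SMIM10L2A, a gene of a small membrane protein on the X chromosome (135421943 to 135428074), ranged from 5.87 to 9.33 CPM on the first side and from 8.51 to 11.8 CPM on the second. The overlap was narrow, and the control lay at 7.78 ± 0.610 CPM, within the first side. The difference was -0.35 (SE 0.06, adjusted p = 0.00125, edgeR), called in all 19 fits without 1 library (adjusted p = 0.0783 without ND5).

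NUPR1, a stress-induced chromatin protein, had the lowest difference among the called genes with at least 1 CPM on average, -0.99 (SE 0.22, adjusted p = 0.0183, edgeR). It is a gene of few reads. Batch 1 held more of it than batch 2 on average in every treatment with 4 libraries. ND4L cells had 1.81, 2.14, 0.879 and 0.879 CPM and ND5 cells 1.64, 1.70, 0.918 and 1.30 CPM. ND1 cells had 1.99, 1.30, 0.749 and 0.574 CPM, and ND2 and ND3 cells 0.16 to 1.13 CPM. The difference was -0.92 within batch 1 and -1.09 within batch 2, and the call was lost without ND2 replicate 1 (0.0694), ND2 replicate 3 (0.0611) or ND5 replicate 4 (0.0599), and without ND5 (0.0874) or ND4L (0.0719). The control held 0.794 ± 0.704 CPM of NUPR1. Log2 values against the control were 0.61 in ND1, -0.49 in ND2, -0.25 in ND3, 0.93 in ND4L and 0.96 in ND5 cells. The ND1 mean (1.15 CPM) lay nearer to ND4L (1.43) and ND5 (1.39) than to ND2 (0.447) or ND3 (0.631).

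**Figure D3:**
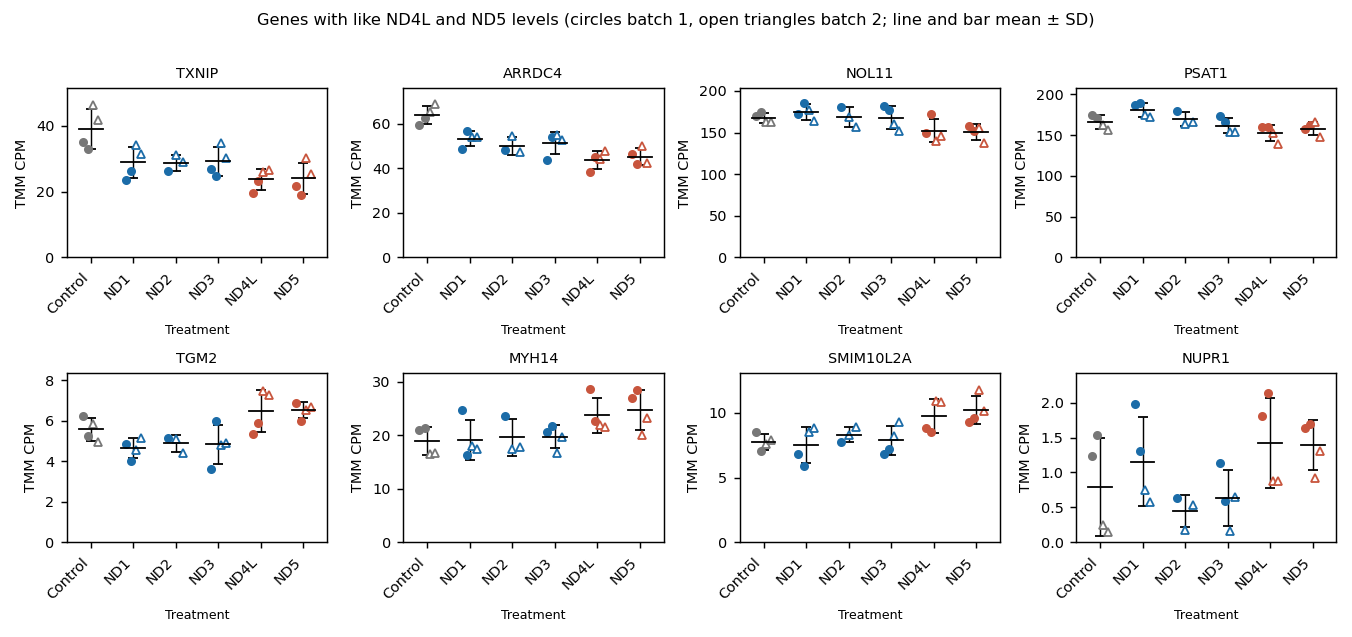
TMM-scaled CPM of 8 called genes in each library of the control and the 5 treatments; circles are batch 1, open triangles batch 2, and line and bar are the mean ± SD. The ND4L and ND5 means lie below the ND1, ND2 and ND3 means for TXNIP, ARRDC4, NOL11 and PSAT1. They lie above them for TGM2, MYH14, SMIM10L2A and NUPR1. Single libraries overlap, and the ND5 mean of PSAT1 is nearer to ND3 than to ND4L.

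A second kind of gene stood apart mainly in ND5 cells. PHYH, a peroxisomal enzyme of phytanic acid breakdown (chromosome 10, 13277796 to 13302412), stood at 11.73, 10.05, 14.18 and 16.40 CPM in the ND5 libraries. The ND4L libraries held 24.88, 26.96, 25.67 and 29.61 CPM, and the 11 libraries of ND1, ND2 and ND3 21.05 to 30.29 CPM (median 24.92). The ND5 libraries thus lay below all others and the ND4L libraries within the range of the other side. The difference between the sides was 0.44 (SE 0.06, adjusted p = 4.79e-06, edgeR), and without ND5 it was -0.07 (adjusted p = 0.612).

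GPR180, a G protein-coupled receptor family member, stood at 19.24, 18.11, 22.23 and 23.32 CPM in ND5 cells, below the 28.25 to 38.59 CPM of ND1, ND2 and ND3 cells and the 30.7 ± 2.15 CPM of ND4L cells. The sides differed by 0.38 (SE 0.05, adjusted p = 2.36e-05, edgeR), and by 0.10 without ND5 (adjusted p = 0.466). JMJD1C, a histone demethylase, differed by 0.35 (SE 0.05, adjusted p = 6.53e-06, edgeR), with 72.7 ± 5.74 CPM in ND5 cells, 97.9 ± 9.15 in ND4L cells and 108.7 ± 4.85 in the control. RDH10, a retinol dehydrogenase, differed by 0.26 (SE 0.04, adjusted p = 3.15e-05, edgeR), with 32.9 ± 2.34 CPM in ND5, 42.2 ± 6.05 in ND4L and 44.6 ± 5.45 in control cells.

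PRDX3, the peroxiredoxin that removes hydrogen peroxide in the mitochondrial matrix (chromosome 10, 119167703 to 119178833), took a middle place. It stood at 337.6, 304.7, 348.2 and 325.9 CPM in ND5 cells and at 374.9, 440.6, 357.0 and 372.4 CPM in ND4L cells, against 384.6 to 475.9 CPM in ND1, ND2 and ND3 cells. All ND5 libraries lay below that range, and 3 of the 4 ND4L libraries did. The difference was 0.26 (SE 0.04, adjusted p = 5.28e-06, edgeR), and 0.15 without ND5 (adjusted p = 0.111). These 5 genes were called in all 19 fits without 1 library.

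MAP2, a microtubule-associated protein of neurons, moved the other way. Its ND5 libraries held 13.30, 13.54, 12.47 and 13.23 CPM and lay above all other libraries of the 5 treatments, which held 6.88 to 10.9 CPM. The difference between the sides was -0.31 (SE 0.07, adjusted p = 0.0170, edgeR; 0.0625 without ND4L replicate 4), and -0.01 without ND5 (adjusted p = 0.988). In a list of 18 neuronal genes tested, MAP2 was the 1 called, beside 0.656% of all genes. SF3B3, a subunit of the splicing factor SF3B, had 492.9 ± 21.9 CPM in ND5 cells and 415.7 ± 15.9 to 420.6 ± 3.59 CPM in the other 4 treatments. Its difference of -0.11 (SE 0.03, adjusted p = 0.0316, edgeR) held in 8 of the 19 fits, with adjusted p up to 0.107 without ND4L replicate 3.

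**Figure D4:**
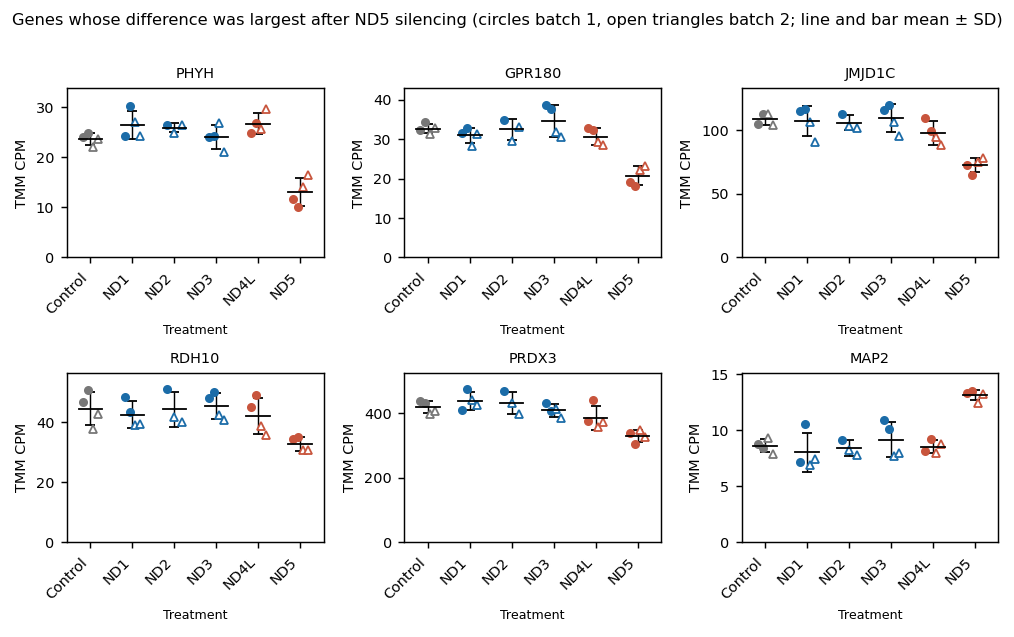
TMM-scaled CPM of 6 called genes in each library of the control and the 5 treatments; circles are batch 1, open triangles batch 2, and line and bar are the mean ± SD. The 4 ND5 libraries lie below all others for PHYH and GPR180 and above all others for MAP2.

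Some mtDNA transcripts outside the targets were lower after ND1, ND2 or ND3 silencing. Of the 28 mtDNA genes tested that were not targets or MT-ND4, 6 were called, all lower: MT-CO1, MT-CYB, both rRNAs and the tRNA genes MT-TN and MT-TL1. Of all genes tested, 0.656% were called and 0.331% were called lower. MT-CO1, the catalytic core of complex IV, ranged from 8924 to 12670 CPM on the ND1, ND2 and ND3 side (median 10730) and from 11630 to 14460 CPM on the other (median 11960). Its treatment means were lowest in ND1 (9914 ± 1125 CPM) and highest in ND5 cells (13070 ± 1316 CPM), with the control at 12000 ± 619 CPM. The difference was -0.22 (SE 0.04, adjusted p = 0.00698, edgeR), called in all 19 fits without 1 library and -0.15 without ND5 (adjusted p = 0.171).

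MT-CYB, the mtDNA subunit of complex III, differed by -0.17 (SE 0.04, adjusted p = 0.0265, edgeR), with libraries at 1817 to 2778 CPM against 2077 to 3054 CPM. Its call was lost without ND2 replicate 1 (0.0806), ND2 replicate 3 (0.0611), ND4L replicate 4 (0.101), ND5 replicate 1 (0.0945) or ND5 replicate 2 (0.0668). Of the 7 mRNAs tested 6 were lower, while 48.7% of all genes tested were higher. The median of the 7 was -0.11 beside -0.00325 over all genes. Those not called had differences of -0.11 for MT-CO2, -0.09 for MT-CO3, -0.07 for MT-ATP6, -0.16 for MT-ATP8 and 0.08 for MT-ND6 (adjusted p = 0.305 to 0.566, edgeR). MT-ATP8 and MT-ATP6 overlap, so their reads could be split.

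The large rRNA MT-RNR2 ranged from 2600 to 3751 CPM on the first side and from 3242 to 4928 CPM on the second, and differed by -0.25 (SE 0.04, adjusted p = 0.000231, edgeR). It was highest in ND5 cells (4311 ± 452 CPM), and ND4L cells (3378 ± 113 CPM) lay below the control (3707 ± 280 CPM) and between ND1 and ND3 cells. Without ND5 the difference was -0.08 (adjusted p = 0.479). The small rRNA MT-RNR1 differed by -0.18 (SE 0.04, adjusted p = 0.0240, edgeR; called in 14 of 19 fits, at most 0.0748 without ND5 replicate 2). It did not separate the treatments: ND1 cells (732.3 ± 100.9 CPM) lay between ND4L (678.5 ± 40.2 CPM) and ND5 cells (770.5 ± 82.3 CPM), with the control at 652.3 ± 31.6 CPM. Without ND5 its difference was -0.09 (adjusted p = 0.387). Poly(A) selection recovers rRNA only in part, and whether that part differed between libraries was not tested.

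MT-TL1, a leucine tRNA gene directly before MT-ND1 (mtDNA 3230 to 3304), was low in ND1 cells. The ND1 libraries held 4.91, 5.56, 6.39 and 7.76 CPM and all other libraries of the 5 treatments 15.2 to 31.5 CPM, with the control at 24.6 ± 1.64 CPM. The ND1 libraries did not overlap with any other. The difference between the sides was -0.58 (SE 0.09, adjusted p = 0.000235, edgeR), and 0.04 without ND1 (adjusted p = 0.944). In the test for differences among ND1, ND2 and ND3 it had an adjusted p of 3.32e-13. MT-TN, an asparagine tRNA gene on the opposite strand, differed by -0.47 (SE 0.10, adjusted p = 0.0183, edgeR), with the call lost without ND2 replicate 1 (0.0590), ND4L replicate 3 (0.0574) or ND4L replicate 4 (0.0564). Of 19 tRNA genes tested 17 were lower, while 48.7% of all genes tested were higher. Reads of tRNA genes come from unprocessed or overlapping RNA as well as from the tRNA, since mature tRNAs carry no poly(A) tail.

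MTCO1P12, a nuclear copy of MT-CO1 on chromosome 1 (631074 to 632616), ranged from 20.42 to 37.42 CPM on the first side and from 31.54 to 55.28 CPM on the second. It differed by -0.53 (SE 0.08, adjusted p = 6.48e-05, edgeR), more than MT-CO1 itself. ND5 cells stood highest with 45.97 ± 7.79 CPM, ND4L cells followed with 37.4 ± 6.92 CPM, and the control held 26.4 ± 1.57 CPM. It was called in all 19 fits without 1 library (adjusted p = 0.0783 without ND5). Its sequence is close to that of MT-CO1, so reads of either gene could be counted on the other. The neighbouring copy MTND2P28 followed MT-ND2, with 237.9 ± 36.9 CPM in ND2 cells against 103.9 ± 12.8 CPM in the control, and like MT-ND2 it is described without a test.

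Nuclear genes of complex I were called about as rarely as genes in general. In the 6 assembly modules and the assembly factors 0 of 58 genes tested were called in edgeR, beside 0.656% of all genes. An unadjusted p under 0.05 was reached by 9 of them, 5 higher and 4 lower, beside 13.7% of all genes. DESeq2 called 2 of them higher, NDUFB6 and NDUFAF4, beside 1.71% of all genes (241 higher and 105 lower). Genes to which DESeq2 gave no adjusted p count as not called in that share. NDUFS6, an accessory subunit of the NADH-binding module, stood at 103.4 ± 7.68, 89.1 ± 9.38 and 91.8 ± 14.1 CPM in ND1, ND2 and ND3 cells. In ND4L and ND5 cells it stood at 117.7 ± 13.4 and 105.5 ± 16.0 CPM, all above the control at 81.4 ± 6.23 CPM. Its difference was -0.24 (SE 0.07, adjusted p = 0.106, edgeR; 0.0406 without ND3 replicate 4).

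NDUFA13, of the ND1 module, had -0.35 (SE 0.11, adjusted p = 0.119, edgeR) at 3.64 to 12.1 CPM, with more in batch 2 than in batch 1 in every treatment. NDUFB6 of the ND4 module had 0.18 (adjusted p = 0.109; 0.0366 without ND5 replicate 3). The assembly factor NDUFAF4 had 0.18 (adjusted p = 0.111; 0.0190 without ND4L replicate 2 and 0.0456 without ND5 replicate 3). The lowest adjusted p in the other modules was 0.250 for NDUFAB1 (ND5 module, 0.11), 0.435 for NDUFA5 (Q module, 0.12) and 0.732 for NDUFC2 (ND2 module, -0.07). List medians ran from -0.17 in the ND1 module of 4 genes to 0.03 in the ND4 module.

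Outside complex I, lists of mitochondrial genes held more genes with a positive than with a negative difference, with few genes called. Their counts stand beside the shares of all genes tested: 48.7% were higher, 0.656% called, 13.7% at an unadjusted p under 0.05 and 1.71% called by DESeq2. Of 38 genes of mtDNA transcription and mRNA handling 34 were higher (median 0.06). The 1 called was FASTKD5, which matures mtDNA mRNAs that lack tRNA borders. It stood at 56.66 to 73.00 CPM against 50.95 to 63.22 CPM, a difference of 0.15 (SE 0.04, adjusted p = 0.0316, edgeR), called in 8 of 19 fits with adjusted p up to 0.109 without ND2 replicate 3, and 0.198 without ND5 or 0.0613 without ND4L. Of 80 mitochondrial ribosomal protein genes 61 were higher (median 0.05), of which 0 were called in edgeR, 26 reached an unadjusted p under 0.05 and DESeq2 called 6, all higher. The median of that list against the control was 0.13 in ND1, 0.06 in ND2, 0.02 in ND3, 0.04 in ND4L and 0.00 in ND5 cells.

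Of 43 nuclear subunits of complexes II to V 33 were higher (median 0.04) and 2 were called. SDHD, a membrane anchor of complex II, differed by 0.22 (SE 0.05, adjusted p = 0.0320, edgeR), with 45.80 to 58.32 CPM against 36.53 to 55.45 CPM. UQCRFS1, the iron-sulfur protein of complex III, differed by 0.14 (SE 0.03, adjusted p = 0.0320, edgeR), with 279.4 to 349.6 CPM against 252.4 to 304.1 CPM. Both calls were weak, held in 8 and 7 of 19 fits, with adjusted p up to 0.131 (SDHD without ND4L replicate 3) and 0.109 (UQCRFS1 without ND4L replicate 1). Without ND5 the adjusted p was 0.101 for SDHD and 0.138 for UQCRFS1, and without ND4L 0.168 and 0.134.

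Stress and signalling lists stand beside the same shares of all genes tested. Of all genes, 48.7% were higher, 0.656% called, 13.7% at an unadjusted p under 0.05 and 1.71% called by DESeq2. In the integrated stress response 28 of 38 genes were higher (median 0.04), and 7 higher and 3 lower reached an unadjusted p under 0.05. PSAT1 was called higher and NUPR1 lower, so its called members did not move together. DESeq2 called 4 members of the list, all higher, but gave NUPR1 no adjusted p. Of 25 genes of NRF2 targets and antioxidant enzymes 18 were higher (median 0.07) and PRDX3 was called. In that list 8 higher and 2 lower genes reached an unadjusted p under 0.05. Of 21 immediate early genes and feedback genes of ERK signalling 18 were higher (median 0.08). An unadjusted p under 0.05 was reached by 7 of the higher and 0 of the lower genes. EGR1, a transcription factor induced within minutes of growth factor stimulation, was the 1 called, at 32.49 to 43.61 CPM against 22.34 to 35.78 CPM. Its difference was 0.26 (SE 0.06, adjusted p = 0.0336, edgeR), lost in 10 of the 19 fits, with 0.145 without ND5 replicate 4. ND5 cells were lowest (27.8 ± 4.30 CPM), with ND4L cells at 33.3 ± 2.04 CPM and the control at 35.8 ± 2.21 CPM, and the difference was 0.13 without ND5 (adjusted p = 0.414) and 0.39 without ND4L (adjusted p = 0.0117).

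Of 79 cytosolic ribosomal protein genes 48 were higher (median 0.01), with 1 called, beside 48.7% higher and 0.656% called of all genes. The lists of glycolysis (21 genes), TCA cycle (24), p53 targets (24), cholesterol synthesis (25), interferon and RNA sensing (22), hypoxia (19) and mitochondrial chaperones and proteases (17) held 0 called genes in edgeR. At an unadjusted p under 0.05 they held 7, 4, 6, 6, 3, 2 and 2 genes, in that order, beside 13.7% of all genes. DESeq2 called LDHA of glycolysis and 2 of the p53 targets (CCNG1 and FAS), all higher, and 0 in the other 5 lists. The markers of HEK293 cells, fibroblasts, leukocytes, endothelium, cardiomyocytes and hepatocytes held 0 as well, in edgeR and in DESeq2, with 3 at an unadjusted p under 0.05. Histone cluster genes, whose mRNAs mostly lack poly(A) tails, also held 0 in both tools, with 0 at an unadjusted p under 0.05. Of these, 15 of 17 were higher (median 0.11), beside 48.7% of all genes. Whether the genes of this list follow the stringency of poly(A) selection was not tested. DESeq2 leaves genes of few reads without an adjusted p, and many markers and 9 of 19 histone genes lay below 1 CPM. Its 0 for markers and histone genes is therefore no test of every gene.

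**Figure D5:**
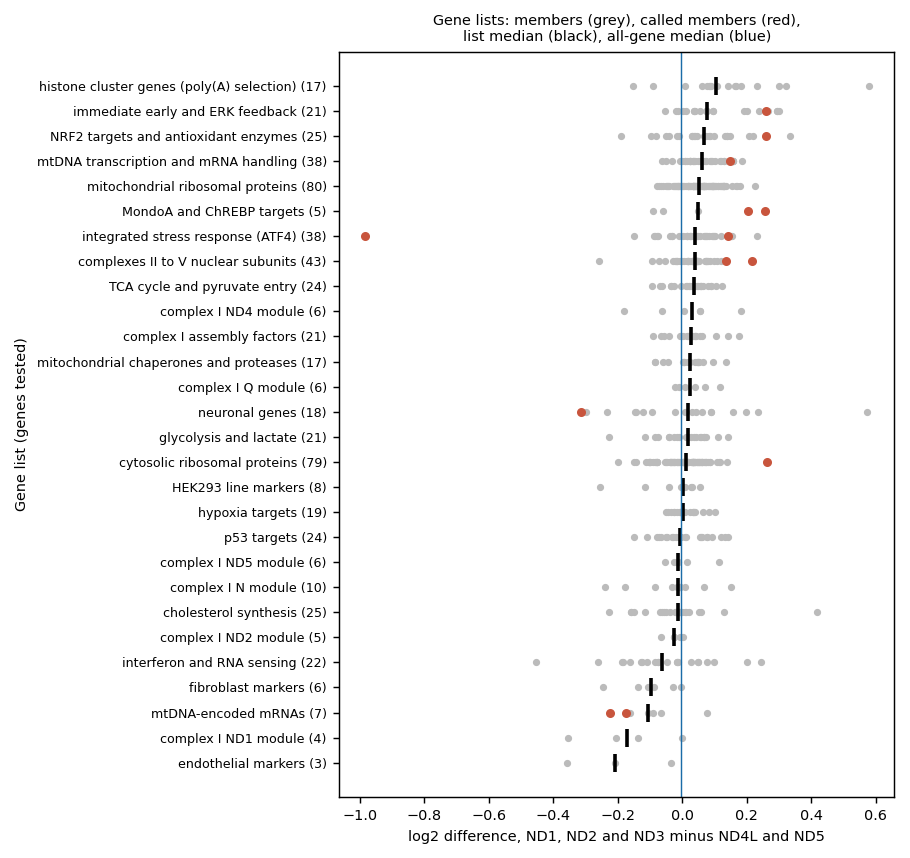
Log2 difference of each gene between ND1, ND2 and ND3 cells and ND4L and ND5 cells, by gene list; grey points are genes, red points genes with an adjusted p under 0.05, black bars the list medians and the blue line the median of all genes. Lists with at least 3 genes tested are shown, their medians lie between -0.21 and 0.11, and called genes are found in 9 lists.

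The remaining genes at both ends of the comparison were mostly of low abundance. Higher were ESX1, a homeobox factor (0.69, SE 0.16, adjusted p = 0.0265, edgeR), FOSL1, an AP-1 subunit (0.39, SE 0.10), CALB1, a calcium-binding protein (0.33, SE 0.08), and RNFT1, a membrane RING-finger protein (0.28, SE 0.07). ESX1 ranged from 0.918 to 1.98 CPM against 0.654 to 1.36 CPM, with the control at 0.888 ± 0.107 CPM. FOSL1 was lowest in ND5 cells, at 2.56 to 5.14 CPM against 4.84 to 7.78 CPM on the first side. Their calls held in 13 (ESX1), 9 (FOSL1), 8 (CALB1) and 8 (RNFT1) of 19 fits, with the highest adjusted p at 0.0813 (ESX1 without ND2 replicate 3), 0.130 (FOSL1 without ND5 replicate 4), 0.101 (CALB1 without ND4L replicate 3) and 0.115 (RNFT1 without ND4L replicate 3).

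Lower were VWA2 (-0.49), LMOD1 (-0.43), CCDC159 (-0.41), TNS1 (-0.38) and PDZD7 (-0.35), with adjusted p = 0.0265 to 0.0491 in edgeR. LMOD1 is an actin-nucleating protein of smooth muscle, TNS1 a focal adhesion protein and VWA2 a secreted matrix protein. LMOD1 ranged from 3.52 to 5.61 CPM against 4.93 to 6.89 CPM, and TNS1 from 2.30 to 4.21 CPM against 3.63 to 4.96 CPM. These 5 calls held in 4 (PDZD7) to 12 (LMOD1) of 19 fits, with adjusted p up to 0.165 (TNS1 without ND4L replicate 4).

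The largest called difference of all belonged to C1orf116, at 1.42 (SE 0.34, adjusted p = 0.0316, edgeR), a gene of 0.246 to 1.07 CPM on the first side and 0.0436 to 0.403 CPM on the second. Its call held in 9 of 19 fits (0.0921 without ND5 replicate 4). The long non-coding RNA LINC00106 differed by -0.62 (SE 0.14, adjusted p = 0.0262, edgeR; 0.130 without ND4L replicate 3), and MALAT1, a nuclear non-coding RNA, by -0.31 (SE 0.08, adjusted p = 0.0401, edgeR; 0.221 without ND4L replicate 4). Both were more abundant in batch 2 than in batch 1 in every treatment with 4 libraries. These 3 were named after their values were seen.

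The called genes differed from the rest in base composition and length. The longest transcripts of the 66 higher genes had a median GC content of 41.8% (quartiles 39.2% and 45.3%), those of the 67 lower genes 52.8% (46.9% and 57.5%), and those of all genes tested 48.6% (42.3% and 56.3%). The median gene length used in the count table was 3760 bases for the higher, 7148 bases for the lower and 3982 bases for all genes. The GC content weighted by each library's counts was 48.33% to 49.04% on the first side and 48.46% to 49.23% on the second. It was highest in ND4L cells (49.0% ± 0.216, SD, n = 4). After removal of a GC trend per library 181 genes were called, and after removal of a gene length trend 113.

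Within the sides, ND4L and ND5 cells differed in 33 of the genes tested (0.163%), 12 higher and 21 lower in ND4L cells, and 2408 reached an unadjusted p under 0.05. With the GC trend removed the split was 12 higher of 22, and with the length trend removed 19 higher of 39. The count was 11 without ND4L replicate 3, 15 without ND5 replicate 3, 16 without ND4L replicate 4 and 21 without ND5 replicate 4. PHYH was higher in ND4L cells by 1.03 (SE 0.09, adjusted p = 1.96e-11, edgeR) and GPR180 by 0.56 (SE 0.08, adjusted p = 0.000101). MAP2 was lower by 0.62 on the log2 scale, at -0.62 (SE 0.10), and SF3B3 stood at -0.25 (SE 0.04), both with an adjusted p of 0.000577.

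MT-ND6, the only mRNA on the light strand of mtDNA, stood at 632.7, 631.2, 580.2 and 607.9 CPM in ND4L cells and at 324.8, 434.2, 451.7 and 415.4 CPM in ND5 cells. The ND5 libraries lay below all ND4L libraries and below the control at 545.3 ± 19.5 CPM, while the highest of them overlapped with ND2 cells, which reached down to 448.5 CPM. The difference was 0.59 (SE 0.07, adjusted p = 2.83e-07, edgeR). MT-ND6 adjoins MT-ND5 on the opposite strand, and the use of strand in counting is not given in the sources used here, so reads of the ND5 mRNA's 3′ end and of MT-ND6 cannot be told apart. TXNIP, TGM2, MMP2 and NUPR1 had differences of -0.01, -0.01, 0.00 and -0.03 between ND4L and ND5 cells, with standard errors of 0.08, 0.12, 0.16 and 0.30.

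Among ND1, ND2 and ND3 cells 2 genes tested differed (0.00987%), MT-TL1 and MT-RNR1, and 1212 reached an unadjusted p under 0.05. MT-RNR1 stood at 732.3 ± 100.9 CPM in ND1, 541.2 ± 25.3 in ND2 and 645.1 ± 48.4 in ND3 cells (adjusted p = 0.00391, edgeR). Only 1 gene was called without ND2 replicate 1, ND1 replicate 3 or ND2 replicate 4. The protein-coding genes nearest to a call were LDHA and PLXNA3 (adjusted p = 0.197 for both), SYTL1 (0.283), PIGQ (0.319) and RAD54L (0.325). LDHA, which makes lactate from pyruvate, stood at 852.0 ± 60.1 CPM in ND1, 758.1 ± 54.6 in ND2 and 737.5 ± 54.8 in ND3 cells. PLXNA3, a semaphorin receptor, SYTL1, a vesicle protein, and RAD54L, a DNA repair helicase, were lowest in ND1 cells, at 48.1 ± 3.42, 2.89 ± 0.286 and 38.7 ± 1.65 CPM. PIGQ, of GPI anchor synthesis, was highest in ND2 cells at 37.6 ± 2.55 CPM.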

How the data were processed

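RNA-seq libraries of HEK293T cells were grouped by the treatment in the sample titles. The authors deposited unnormalized read counts for 58735 genes, the unit used here; the submitters' processing notes name GRCh38.p12, R 4.3.0, DESeq2 1.40.2 and limma 3.56.2. How reads were aligned and counted, and whether strand was used, is not given in the sources used here. Batches follow the study's methods. The members, gene lists and tests were chosen with earlier results of these data known.

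Counts of all 46 libraries were fitted with edgeR 4.0.16 (R 4.3.3; TMM, filterByExpr with a minimum count of 10, quasi-likelihood F test) with condition and batch as terms, and all conditions shared 1 estimate of the spread. The contrast was the mean of ND1, ND2 and ND3 minus the mean of ND4L and ND5, both equally weighted. Of 20272 genes kept, 13 linked to the choice of the sides (the 5 targets, MT-ND4 and 7 nuclear copies) were left out of all counts. Standard errors are the absolute log2 difference over the square root of F. ND4L against ND5 and a joint test among ND1, ND2 and ND3 used the same fit. Depth was 20519514 to 27301986 counts in the 19 libraries. Replicate pairs differed beyond sampling noise, with chi-square per degree of freedom of 3.39 to 16.5 in 27 pairs. On simulated counts for the main contrast, 20272 genes with 100 changed at each size, the step recovered 88 at a log2 change of 0.5 and 99 at 1, and called 9 unchanged genes in the same run. Smaller changes were not simulated.

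Named genes were the 13 mtDNA mRNAs; the 10 highest and 10 lowest differences among called protein-coding genes with a mean of at least 1 CPM; genes called both without ND4L and without ND5, of which there were 0; up to 3 called genes per list, or the lowest p in the complex I lists; and the 5 lowest p of each comparison within a side. Others were named after their values were seen. Alternatives used limma 3.58.1 and DESeq2 1.42.0. Some genes that meet these rules are not reported here.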

Additional observations from a re-analysis of the deposited data

Results flagged for a closer look

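In groups of 4 libraries, single libraries far from the other 3 by Dixon's test were sought in 284 groups (71 genes in 4 treatments), and 10 stood apart, where chance alone gives about 1 in 20. ND4L replicate 1 held 4114 CPM of MT-CO2 (others 5073 to 5223) and ND1 replicate 3 held 3751 CPM of MT-RNR2 (others 2981 to 3072). ND1 replicate 4 held 762.9 CPM of LDHA (others 875.0 to 895.1), and ND1 replicate 2 held 10.60 CPM of MAP2 (others 6.88 to 7.43). ND4L replicate 2 stood high for a pair of genes, with 304.1 CPM of UQCRFS1 (others 269.3 to 272.8) and 67.97 CPM of NDUFAF4 (others 49.23 to 51.75). ND5 replicate 4 held 50.95 CPM of FASTKD5 (others 57.16 to 57.87), ND3 replicate 1 held 66.60 CPM of IMP3, a factor of ribosome assembly (others 56.66 to 57.85) and ND4L replicate 3 held 2.945 CPM of MMP2 (others 3.66 to 3.75).

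AC007325.4, a gene on the contig KI270734.1, differed between the batches. An interaction of condition and batch, a test chosen after the data were seen, gave a difference in batch 2 minus that in batch 1 of 3.27 on the log2 scale (adjusted p = 8.95e-06, edgeR), the only gene called of 1160 with an unadjusted p under 0.05. Within batch 1 the sides differed by -1.92 and within batch 2 by 1.35. ND1 replicate 3 stood apart with 9.519 CPM (others 1.72 to 2.43), and ND2 replicates 3 and 4, ND4L replicates 1 and 2 and ND5 replicates 1 and 2 held 4.97 to 9.24 CPM, the other libraries of the 5 treatments 1.02 to 2.43 CPM and the control 1.19 to 1.64 CPM.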

How the results depend on the processing

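All values rest on 19 libraries of 1 line, and the sides hold 3 and 2 treatments, so a difference of 1 treatment can carry a call. The direction of all 133 genes was the same in both batches and without any single library, which is no independent result for genes called from these same libraries. The number called was not stable. It was 13 without the batch term, 11 in batch 1 alone, 3 in batch 2 alone, 320 with no filter on low counts, 80 for plain groups of 11 and 8 libraries, 0 with 1 value per treatment in limma and 346 in DESeq2 (241 higher and 105 lower, against 66 and 67). It was 15 without the ND1, 45 without the ND2 and 2 without the ND5 treatment, and 31 to 300 without single libraries. With the replicate block it was 249. ND4L against ND5 gave 33 genes, 10 without the batch term, 56 with the replicate block, 65 with only the 19 libraries, 9 in batch 1, 1 in batch 2, 113 with no filter, 111 in DESeq2 and 11 to 48 without single libraries. Among ND1, ND2 and ND3 the 2 genes became 1 without the batch term, 112 with no filter, 8 in DESeq2 and 1 to 3 without single libraries. The causes were not tested. Same-numbered libraries of a batch did not deviate together (12 correlations of -0.0438 to 0.046), and the numbers were not taken as pairs. The replicate block nonetheless called more genes, 249 in the main contrast and 56 for ND4L against ND5. Whether replicate number has an effect of its own was not tested. The counts moved by at most 1.5 times with size factors of DESeq2, nuclear library sizes, a minimum count of 50 and removed GC or length trends. Of 45 named and called genes 44 and 45 were called with the first 2 of these scalings. In DESeq2 29 of the 45 had an adjusted p, all under 0.05. Reversed were PHYH (-0.0743) and SF3B3 (0.0112) without ND5 and MT-TL1 (0.0369) without ND1.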
